A study of Ovis aries with 8 samples.

Results

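TGFB3 and its close relatives TGFB1 and TGFB2, the 3 TGF-beta ligands, were followed across carotid arteries of sheep fetuses whose mothers spent most of gestation at high altitude or near sea level. The members are all non-control probes that the array's names or descriptions assign to these genes, which gave 3 of the 702 genes named on the array, on 4 of its 15008 probes: A_70_P031231 and A_70_P031232 for TGFB3, A_70_P051421 for TGFB1 and A_70_P031226 for TGFB2. TGFB3 was picked because its level differed between these same 2 groups, so its hypoxia minus normoxia values are given as a description with no test.

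The hypoxia group held 4 fetuses of ewes kept at 3801 m from gestation day 30 to day 135, an exposure that the titles give as 110 days. The normoxia group held 4 fetuses of ewes kept at their supplier's ranch at 300 m. All 8 arteries are labelled with a gestation of 140 days, and all ewes ate alfalfa pellets in natural day and night. The exposure is given to day 135 and the arteries to day 140, and the labels do not say where the ewes were in between, so "hypoxia" here means the group as labelled and not the oxygen supply when tissue was taken. Altitude therefore came with a change of site, and the 2 cannot be told apart. The labels do not say whether each fetus had a ewe of its own, and a p-value below covers no more than the variation among these 8 arteries. Total RNA of each artery was labelled with Cy3 and put on 1 ovine Agilent array.

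TGF-beta ligands are secreted as dimers held in a latent complex with their own propeptide, and integrins or proteases of the matrix set them free. The free ligand binds the type II receptor TGFBR2, which recruits and activates the type I receptor TGFBR1, and this phosphorylates SMAD2 and SMAD3, which enter the nucleus with SMAD4. In the arterial wall the pathway is known for driving collagen and other matrix genes and for its part in smooth muscle differentiation.

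A level below is the log2 processed spot signal minus the 75th percentile of its array, so 0 is the brightness of a probe at that percentile. That percentile lay between 97.9 and 1241 signal units on the hypoxia arrays and between 125 and 1387 on the normoxia arrays, and it was lowest on hypoxia 1 and normoxia 1. Arrays numbered 2 and 4 stood apart in both groups: their 75th percentile was 2.67 and 2.84 above their median signal in hypoxia and 2.94 and 2.86 in normoxia, on the log2 scale. For arrays 1 and 3 this distance was 1.62 and 1.71 in hypoxia and 1.61 and 2.14 in normoxia. Slide 1 carried hypoxia 1, 2 and 3 with normoxia 1, slide 2 carried hypoxia 4 with normoxia 2, and slide 3 carried normoxia 3 and 4. With slide as a block, normoxia 3 and 4 add nothing to a group difference, since no hypoxia array shares their slide. Each value below after blocking on slide therefore rests on normoxia 1 and normoxia 2 alone for its normoxia side. The 3 smooth muscle markers the array names, CNN1, MYLK and MYL6, were well above background on all 8 arrays, with summed levels, relative to the 75th percentile, of 201 to 864 in hypoxia and 415 to 1177 in normoxia. In whole arteries, fewer cells of a type and less RNA per cell cannot be told apart.

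TGFB3 was higher in every hypoxic artery than in any normoxic one, by both of its probes. Probe A_70_P031231 had levels of -0.08, -0.05, 0.86 and 0.72 on hypoxia 1 to 4, against -1.18, -0.95, -0.35 and -1.78 on normoxia 1 to 4. The other probe, A_70_P031232, had 0.38, 0.29, 1.09 and 0.80 on hypoxia 1 to 4, against -0.45, -0.64, -0.08 and -1.67 on normoxia 1 to 4. In both, hypoxia 3 was the highest array and normoxia 4 the lowest, and the lowest hypoxia array stood above the highest normoxia array, by 0.27 for A_70_P031231 and 0.37 for A_70_P031232. The log2 difference was 1.43 (standard error 0.39), or 2.69-fold, for A_70_P031231 and 1.35 (standard error 0.39), or 2.55-fold, for A_70_P031232 (n = 4 each). Of all 11216 probes tested, 1.72% had every hypoxia array above every normoxia array. Since TGFB3 was chosen by this contrast, nothing is read from that share.

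**Figure D1:**
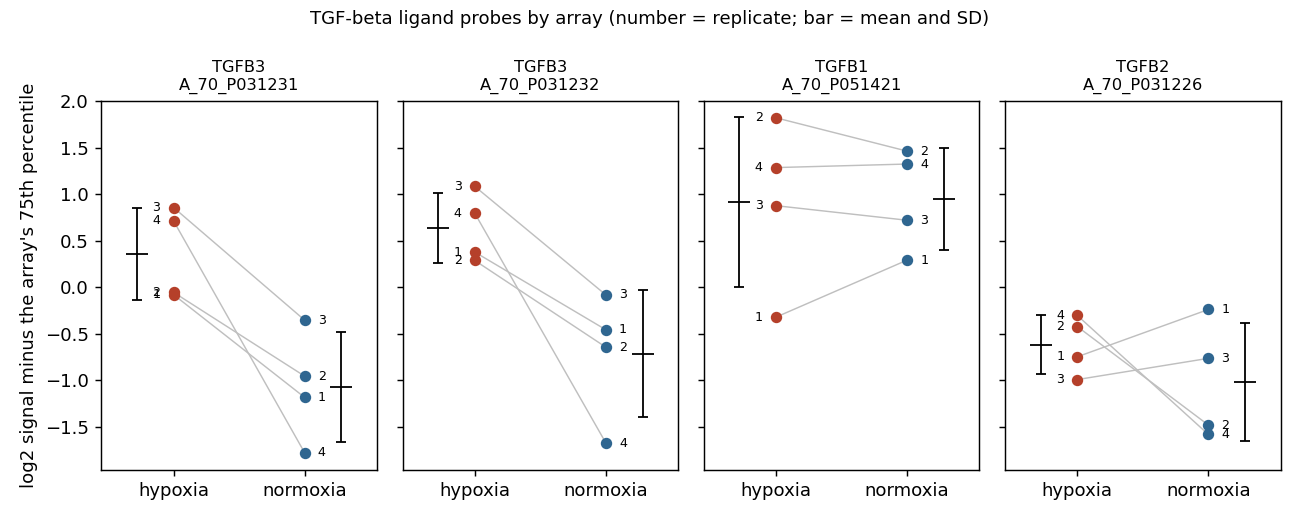
Level of each TGF-beta ligand probe (log2 signal minus the array's 75th percentile, vertical axis) in hypoxia and normoxia arteries; points are arrays with their replicate number, grey lines join equal numbers, and bars give the mean and SD of 4 arrays. The groups are apart for both TGFB3 probes, with differences of 1.43 and 1.35, and overlap for TGFB1 and TGFB2.

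The separation depends on the scale. Before scaling, the processed signal of A_70_P031231 was 92.8, 334, 2253 and 1445 on hypoxia 1 to 4, against 55.3, 313, 1087 and 116 on normoxia 1 to 4, and the groups overlapped. The place of the probe in its own array needs no scaling between arrays. A_70_P031231 stood at percentile 74.1, 74.5, 84.2 and 80.7 on hypoxia 1 to 4, against 57.7, 66.5, 71.3 and 60.1 on normoxia 1 to 4. A_70_P031232 stood at percentile 79.2, 77.5, 86.0 and 81.4 on hypoxia 1 to 4, against 68.9, 69.2, 74.2 and 61.1 on normoxia 1 to 4. Neither set of percentiles overlapped. They restate the same signals that chose TGFB3 and are no separate support. Centring arrays on their median signal in place of the 75th percentile did bring an overlap: the mean of both probes was then lowest at 1.77 in hypoxia (array 1) and highest at 2.14 in normoxia (array 2), with a group difference of 1.21.

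Both probes were bright enough to measure on all 8 arrays. Each had 1 spot an array, well above background, with no saturated or outlying spot. The mean spot signal was between 1.92 and 25.9 times the local background for A_70_P031231 and between 2.33 and 28.2 times for A_70_P031232. The error that the scanner software assigns was at most 12.4% of the signal for A_70_P031231 and at most 11.0% for A_70_P031232. These errors are those of a spot and cover no variation between arteries.

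The probes gave the same order of arrays at the ends and correlated at r = 0.97 over the 8 arrays, which share their RNA, slide and scan. The mean of both probes was 0.50 ± 0.43 in hypoxia and -0.89 ± 0.62 in normoxia (SD, n = 4 each). From the top, arrays ran hypoxia 3 (0.97), hypoxia 4 (0.76), hypoxia 1 (0.15), hypoxia 2 (0.12), normoxia 3 (-0.22), normoxia 2 (-0.80), normoxia 1 (-0.82) and normoxia 4 (-1.73). Hypoxia 1 and 2 were 0.03 apart and normoxia 2 and 1 were 0.02 apart, both less than the spot error. Normoxia 4 lay 0.91 below its nearest neighbour, the widest step in the order.

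Arrays with equal replicate numbers gave TGFB3 differences of 1.11, 0.90, 1.21 and 2.49 for pairs 1 to 4 by A_70_P031231 and of 0.84, 0.93, 1.17 and 2.47 by A_70_P031232. All 4 pairs had to be positive, since the groups did not overlap. Pair 4, with the low normoxia 4, was the widest for each probe. Without normoxia 4 the mean difference of both probes was 1.11. Blocking on slide, where normoxia 3 and 4 do not count, gave 1.52 for A_70_P031231 and 1.20 for A_70_P031232. Within slide 1, where hypoxia 1, 2 and 3 meet normoxia 1, the A_70_P031231 difference was 1.43, and within slide 2, with 1 array a group, it was 1.67. For A_70_P031232 these were 1.04 and 1.44. Among arrays 1 and 3 alone the mean difference of both probes was 1.08 and among arrays 2 and 4 alone it was 1.70, a split chosen after the data were seen. The normexp background correction gave the smallest value, 0.77, with the median of all probes at -0.31 against -0.02 as reported.

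TGFB1, the most widely studied of these ligands, showed no such separation. Its levels were -0.32, 1.82, 0.88 and 1.29 on hypoxia 1 to 4, against 0.29, 1.47, 0.72 and 1.33 on normoxia 1 to 4. The groups overlapped, and arrays numbered 1 were the lowest in each. The mean was 0.92 ± 0.91 in hypoxia and 0.95 ± 0.54 in normoxia (SD, n = 4 each). The log2 difference was -0.03 (standard error 0.50, limma adjusted p = 0.998), with a 95% interval of -1.19 to 1.12, too wide to show that the level was the same in both groups. Of 4 pairs, 2 were higher in hypoxia. Blocking on slide gave 0.23, slide 1 alone 0.50, slide 2 alone -0.18 and normexp 0.31, so its direction is not settled.

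TGFB2, the ligand best known from heart and vessel development, had a difference between those of TGFB1 and TGFB3 as reported, and below that of TGFB1 with normexp, after blocking on slide and among arrays 1 and 3. Its levels were -0.75, -0.42, -0.99 and -0.30 on hypoxia 1 to 4, against -0.24, -1.48, -0.76 and -1.58 on normoxia 1 to 4. The hypoxia arrays sat inside the normoxia range, with normoxia 1 above them and normoxia 2 and 4 below. The mean was -0.61 ± 0.31 in hypoxia and -1.01 ± 0.63 in normoxia (SD, n = 4 each), a log2 difference of 0.40 (standard error 0.36, limma adjusted p = 0.998, 95% interval -0.44 to 1.24). The 4 pairs gave -0.51, 1.06, -0.23 and 1.28, negative for arrays 1 and 3 and positive for arrays 2 and 4. The difference was -0.48 on slide 1, 1.18 on slide 2 and 0.18 after blocking on slide, and among arrays 1 and 3 alone it was -0.37.

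The balance of the ligands on 1 array does not change when the array is scaled by a single factor, but it does with the background correction. TGFB3 minus TGFB1 was 0.47, -1.71, 0.09 and -0.53 on hypoxia 1 to 4, against -1.11, -2.26, -0.94 and -3.05 on normoxia 1 to 4. TGFB3 minus TGFB2 was 0.90, 0.54, 1.96 and 1.06 on hypoxia 1 to 4, against -0.58, 0.68, 0.55 and -0.15 on normoxia 1 to 4. Both sets overlapped between the groups, through hypoxia 2 in the first and through hypoxia 2 with normoxia 2 and 3 in the other. The probes belong to different genes, so only the change between groups can be read, and it does not tell which ligand moved. TGFB3 was chosen by this contrast, so the balances that hold it lean towards it and are a description without a test. TGFB3 minus TGFB1 averaged -0.42 ± 0.95 in hypoxia and -1.84 ± 1.0 in normoxia, a difference of 1.42, and TGFB3 minus TGFB2 averaged 1.11 ± 0.61 in hypoxia and 0.12 ± 0.59 in normoxia, a difference of 0.99 (SD, n = 4 each). With normexp these differences were 0.46 for TGFB3 minus TGFB1 and 0.73 for TGFB3 minus TGFB2. TGFB2 minus TGFB1, which TGFB3 does not enter, differed by 0.43 (exact two-sided permutation p = 0.571, n = 4 each). Over the 8 arrays TGFB3 correlated at r = -0.09 with TGFB1 and at 0.52 with TGFB2, and TGFB1 with TGFB2 at -0.23, given as a description of arrays that share group and slide.

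**Figure D2:**
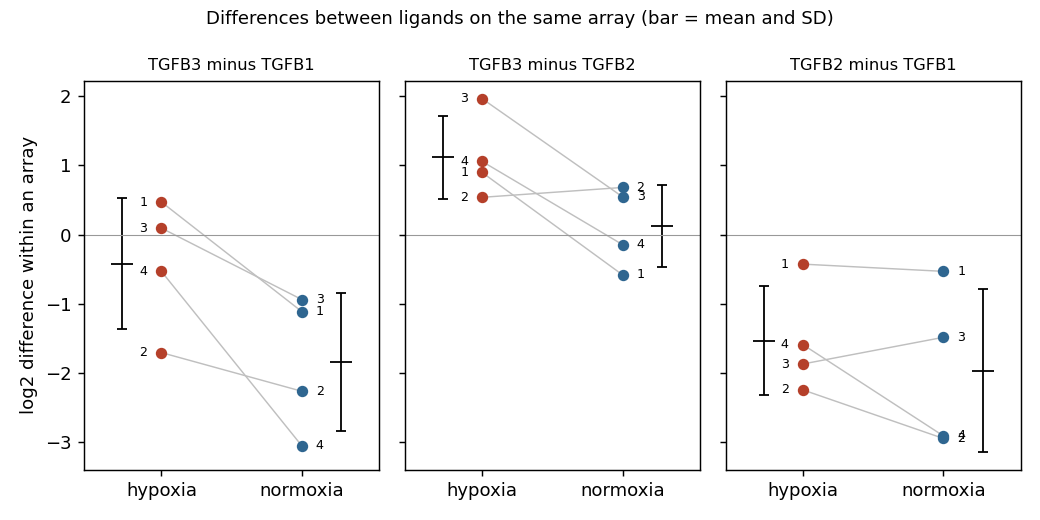
Log2 difference between pairs of ligands on the same array (vertical axis), in hypoxia and normoxia; points are arrays with their replicate number and bars give the mean and SD of 4 arrays. TGFB3 stood higher against TGFB1 in hypoxia by 1.42 and against TGFB2 by 0.99 on average, with overlap between the groups.

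The wider pathway was drawn from 7 lists of 122 genes, of which the array names 49 and 43 besides TGFB3 were measured. No gene among the 43 passed limma's adjusted p of 0.05, and neither did any of the 11216 probes (0%), of which 413 (3.68%) had an unadjusted p under 0.05, 334 (2.98%) of them higher and 79 (0.704%) lower in hypoxia. With normexp the balance turned, to 9 higher and 15 lower. Of the 43 genes, 21 were higher and 22 lower in hypoxia, 1 (IGFBP3) had an unadjusted p under 0.05, and the median difference was -0.03 against -0.02 over all probes. None had groups that did not overlap, where 1.72% of all probes lay wholly above and 0.963% wholly below normoxia. By correlation over all probes, hypoxia 1 to 3 each came closest to the normoxia array of their number. Hypoxia 4 correlated best with normoxia 2, and more closely (0.80) than hypoxia 2 did (0.73). Numbers 2 and 4 are therefore not borne out as pairs. With equal numbers as a block, 7 of the 43 and 1337 of all probes had an unadjusted p under 0.05, and none passed the adjusted threshold. The 7 genes were COL3A1, IGFBP3, TIMP1, MMP2, BMP6, SMAD4 and COL1A1. Agreement of all 4 pairs is given below for single genes as a description only. The share of all probes that show it is not given, so it sets no gene apart.

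Of the genes that hold TGF-beta in latent form or release it, 7 of 26 were measured. As reported, 3 were higher and 4 lower, with a median difference of -0.05, where 48.3% of all probes were higher. With cyclic loess 5 were higher and 2 lower, where 44.8% of all probes were higher. With median scaling 1 was higher and 6 lower, where 35.0% were. MMP2, a matrix gelatinase that can free latent TGF-beta, had levels of -0.07, -0.87, 0.50 and -0.96 on hypoxia 1 to 4, against -1.65, -1.11, -0.06 and -1.93 on normoxia 1 to 4. All 4 pairs were higher in hypoxia, but the groups overlapped. Its log2 difference was 0.84 (standard error 0.51, limma adjusted p = 0.998), while its other probe gave 0.20. With normexp the first was 0.19, where the median of all probes was -0.31. ITGAV and ITGB5, integrin chains that bind the latent complex, differed by 0.06 (standard error 0.29) and 0.08 (standard error 0.44). Their other probes gave -0.27 (standard error 0.49) for ITGAV and 0.05 (standard error 0.35) for ITGB5. Decorin (DCN) and biglycan (BGN), small proteoglycans that bind TGF-beta, differed by -0.15 (standard error 0.75) and -0.05 (standard error 0.40). MMP14 and ITGB6 differed by -0.33 (standard error 1.28) and -0.51 (standard error 1.76). ITGB6 had only 2 hypoxia and 3 normoxia arrays well above background. ITGB3 and FURIN, the convertase that cleaves the TGF-beta propeptide, did not pass the filter on dim probes.

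Of the receptors, 5 of 13 were measured, 3 higher and 2 lower, with a median difference of 0.04. With normexp 1 was higher and 4 lower, where 20.6% of all probes were higher. TGFBR2, which binds the free ligand, had levels of -1.31, -0.44, 0.04 and -0.74 on hypoxia 1 to 4, against -1.06, -0.95, -0.75 and -0.77 on normoxia 1 to 4 by probe A_70_P031271. The normoxia arrays lay inside the wider hypoxia range. The log2 difference was 0.27 (standard error 0.32, limma adjusted p = 0.998), and its other probe was dim, with 2 hypoxia arrays and 1 normoxia array well above background. TGFBR1, the signalling partner, could not be measured: A_70_P031236 was well above background on hypoxia 3 and normoxia 3 alone, and A_70_P031237 on hypoxia 3 with normoxia 1 and 3. Among receptors of activins and BMPs, ACVR1 differed by 0.38 (standard error 0.37), ACVR2B by 0.04 (standard error 0.23), ACVR2A by -0.32 (standard error 0.36) and BMPR1B by -0.61 (standard error 0.50). The other probes gave 0.95 (standard error 0.48) for ACVR1, -1.18 (standard error 1.61) for ACVR2A and -0.07 (standard error 1.40) for BMPR1B. ACVR1 was higher in all 4 pairs by both probes, with overlap between the groups. BMPR1B was lower in hypoxia in all 4 pairs by its first probe, also with overlap, but higher in 3 by the other. With normexp ACVR1 differed by -0.19 and -0.01, where the median of all probes was -0.31. ACVR1B did not pass the filter on dim probes.

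Of the SMADs, 6 of 8 were measured, 2 higher and 4 lower, with a median difference of -0.31. It was 0.19 without hypoxia 4, where the median of all probes was 0.13, and 0.24 without normoxia 1, where that was 0.10. SMAD4, the shared partner of the receptor SMADs, had levels of -0.53, -1.02, 0.11 and -0.91 on hypoxia 1 to 4, against -0.74, -1.46, -0.44 and -1.91 on normoxia 1 to 4. It was higher in all 4 pairs by both probes, with log2 differences of 0.55 (standard error 0.42) and 0.72 (standard error 0.44) and a limma adjusted p of 0.998. With normexp these were -0.006 and 0.031, where the median of all probes was -0.31. SMAD2 differed by 0.19 (standard error 0.32), and by -0.22 with normexp. SMAD1, SMAD3, SMAD5 and SMAD7, of which SMAD7 inhibits the receptors, had differences between -1.20 and -0.24, with standard errors between 0.91 and 1.90. In hypoxia all 4 were lower on arrays 2 and 4 than on arrays 1 and 3. SMAD3 read -1.09, -6.57, -1.22 and -7.95 on hypoxia 1 to 4, against -0.58, -6.36, -1.92 and -3.33 on normoxia 1 to 4, with 2 hypoxia and 3 normoxia arrays well above background. For each of the 4 the range within hypoxia was wider than the difference between the groups, and the part of the array split in these results was not tested. The second SMAD7 probe differed by 0.47, the other way from the first.

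Of the antagonists, 3 of 14 were measured, with a median difference of -0.64. Follistatin (FST), which traps activins, had levels of 1.65, 1.59, 0.58 and 1.70 on hypoxia 1 to 4, against 2.01, 1.89, 2.49 and 1.67 on normoxia 1 to 4. Hypoxia 3 was the lowest and normoxia 4 fell among the other hypoxia arrays. The difference was -0.64 (standard error 0.34, limma adjusted p = 0.998) and -0.58 by its other probe. BAMBI, a decoy receptor, differed by 0.02 (standard error 0.31). The BMP antagonist NOG differed by -1.25 (standard error 0.92) by a probe at 0.05 on normoxia 4 and at -2.35 or lower on all other arrays, and by 0.19 by its other probe. CHRD did not pass the filter on dim probes.

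Other ligands of the superfamily were measured for 8 of 21 genes, 2 higher and 6 lower, with a median difference of -0.22. Without normoxia 1 the split was 6 higher and 2 lower, where 56.5% of all probes were higher. BMP6 had levels of -1.66, -2.26, -1.02 and -1.20 on hypoxia 1 to 4, against -2.28, -2.53, -1.54 and -2.18 on normoxia 1 to 4, higher in all 4 pairs. Its log2 difference was 0.60 (standard error 0.36, limma adjusted p = 0.998). With normexp it was 0.011, with -0.067 by its other probe, where the median of all probes was -0.31. INHBA, the chain of activin A, differed by -0.54 (standard error 0.59) and BMP4 by -0.18 (standard error 0.27). INHA, the inhibin alpha chain, differed by -0.91 (standard error 0.65) by a probe that read -4.85 on hypoxia 1 and was not well above background there. Without hypoxia 1 it differed by -0.25, and its other probe gave -0.21 over all arrays.

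Genes known to respond to TGF-beta were measured for 12 of 37, 9 higher and 3 lower in hypoxia, with a median difference of 0.26, where 48.3% of all probes tested were higher. The split was 3 higher and 9 lower with normexp, where 20.6% of all probes were higher, and 4 higher and 8 lower after blocking on slide, where 42.8% were. COL3A1, a fibrillar collagen of the arterial wall, had levels of 1.53, 2.03, 3.73 and 1.69 on hypoxia 1 to 4, against -0.22, 0.08, 2.64 and -0.72 on normoxia 1 to 4 by probe A_70_P006991. Array 3 was the highest of its group on both sides, as for TGFB3. The log2 difference was 1.80 (standard error 0.81, limma adjusted p = 0.998), and the other COL3A1 probes gave 0.53 and 0.54. COL1A1, another fibrillar collagen, differed by 0.96 (standard error 0.53) with 3 arrays a group well above background, and by 0.56 to 1.40 when 1 array was left out. With normexp it differed by -0.14, where the median of all probes was -0.31. IGFBP3, which binds insulin-like growth factors, had levels of 3.15, 3.20, 2.59 and 3.56 on hypoxia 1 to 4, against 2.92, 1.76, 1.28 and 1.21 on normoxia 1 to 4. Only normoxia 1 reached into the hypoxia range. Its log2 difference was 1.33 (standard error 0.43, limma adjusted p = 0.998), against 0.75 after blocking on slide, 0.06 within slide 1 and 1.80 within slide 2. TIMP1, a tissue inhibitor of matrix metalloproteinases, was lower in all 4 pairs, with a difference of -0.60 (standard error 0.39), and -0.19 with slide as a block.

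The fibroblast markers the array names, DCN, COL1A1 and COL3A1, had summed levels of 23.5 to 176 in hypoxia and 24.0 to 68.2 in normoxia, relative to the 75th percentile, with hypoxia 1 the highest through DCN. Their part in the TGFB3 levels was not tested. Endothelial markers summed to 0.54 to 2.19 in hypoxia and 0.41 to 1.56 in normoxia.

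**Figure D3:**
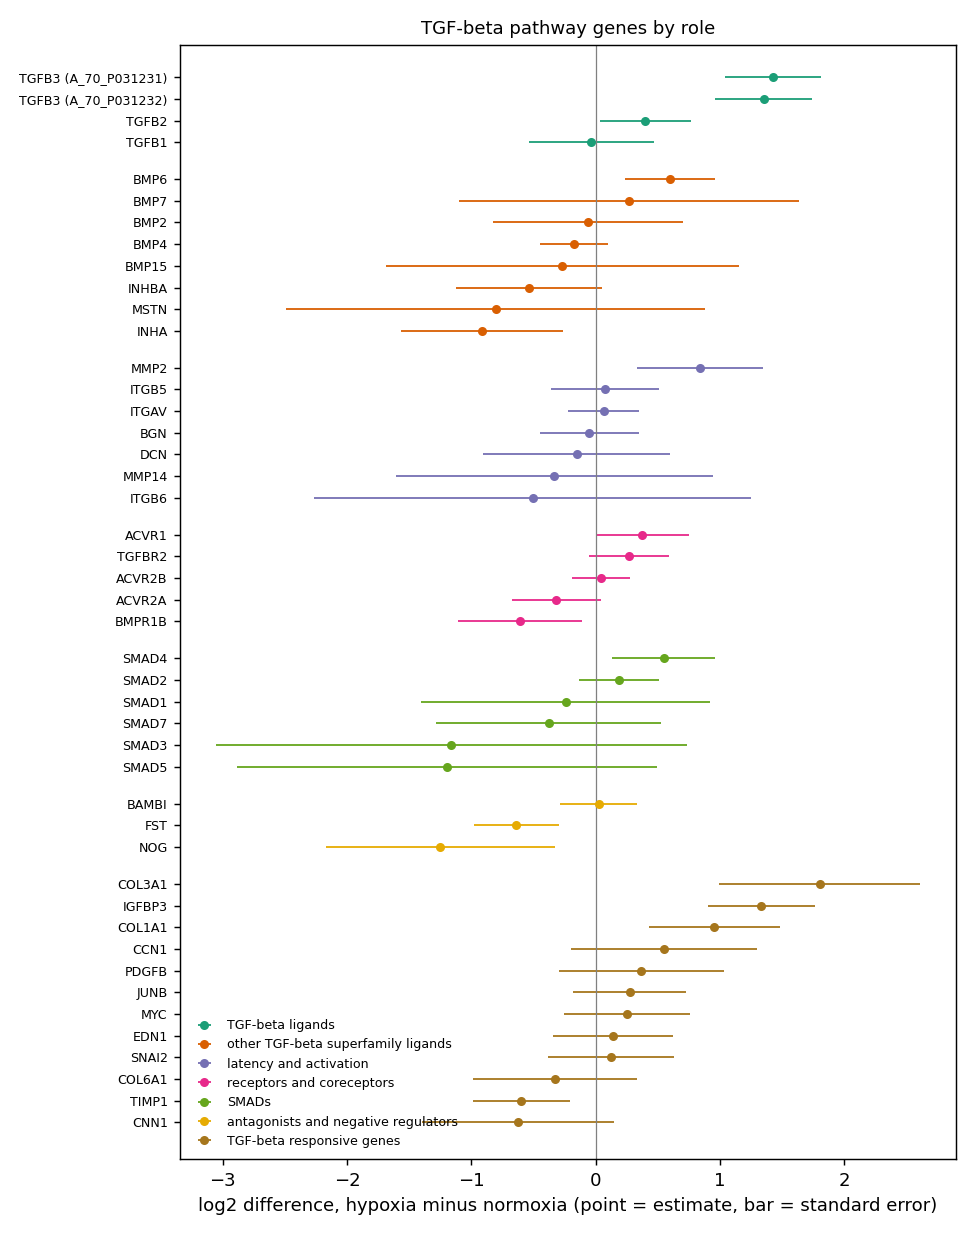
Log2 difference, hypoxia minus normoxia (horizontal axis), of each measured gene of the TGF-beta pathway, grouped and coloured by role; points are limma estimates from 4 arrays a group and bars their standard errors. Both TGFB3 probes lie at 1.43 and 1.35, and the bars of SMAD3, SMAD5, MSTN and ITGB6 are the widest.

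The array profile of TGFB3 was then set beside those of 312 named genes that were well above background on all 8 arrays. The median correlation was -0.07, and 6.09% of the genes exceeded 0.7. The highest were CTSF, a lysosomal cysteine protease, at r = 0.89, then COL3A1 at 0.87, the small GTPase RAC1 at 0.82, glutamate dehydrogenase GLUD1 at 0.82 and the proteasome subunit PSMD4 at 0.82. The lowest were ATP5MC2, a subunit of mitochondrial ATP synthase, at -0.82, GRINA at -0.81 and the sialyltransferase ST3GAL4 at -0.76. These values mix the group difference, which chose TGFB3, with variation inside the groups.

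CTSF, the closest gene, had a level of 0.18 in hypoxia and -1.25 in normoxia, a difference of 1.43. After each array's group mean was taken off, the highest correlations were with GJA1, which encodes the gap junction protein connexin 43, at 0.87, the mitochondrial GRPEL1 at 0.86, PPP1R12A, a subunit of myosin phosphatase, at 0.83, the matrix protein FBLN1 at 0.83 and COL3A1 at 0.79. Over all genes compared these correlations had a median of -0.03 and went down to -0.90, further from 0 than the highest. GJA1 itself differed by 0.01 between the groups and FBLN1 by 0.85. COL3A1 was in both lists, though its other probes correlated with TGFB3 at 0.68 and 0.65 over the 8 arrays.

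**Figure D4:**
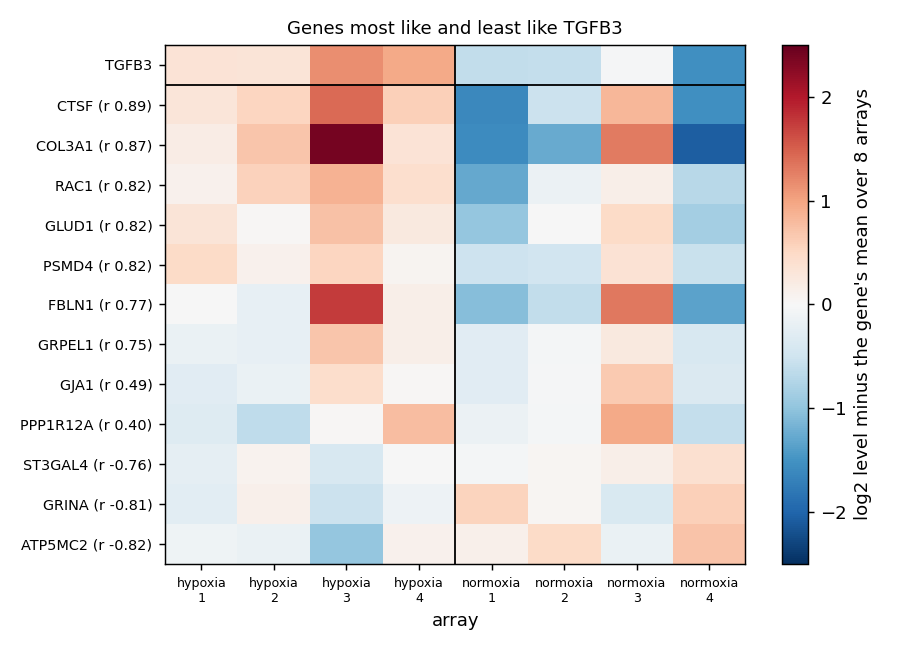
Level of TGFB3 (mean of both probes, top) and of the genes most like and least like it on each array, as log2 level minus the gene's mean over 8 arrays (colour), with hypoxia arrays left of the line and normoxia arrays right. CTSF and COL3A1 follow TGFB3 with r of 0.89 and 0.87, and ATP5MC2 runs against it with r of -0.82.

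Other ways of processing gave each ligand a range. Over 22 alternatives the TGFB3 difference lay between 0.77 and 1.70 and was above 0 in all 22. The gene was chosen by this contrast, and leaving out arrays could not turn its sign while all hypoxia arrays stood above all normoxia arrays. The replicate block and the filter on dim probes could not move it either, so that count is no test. The TGFB1 difference lay between -0.34 and 0.38, above 0 in 9 of 22. The TGFB2 difference lay between -0.37 and 1.17, above 0 in 21 of 22. The dim probe filter and the replicate block could not move TGFB1 or TGFB2, so these counts are not of separate checks.

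**Figure D5:**
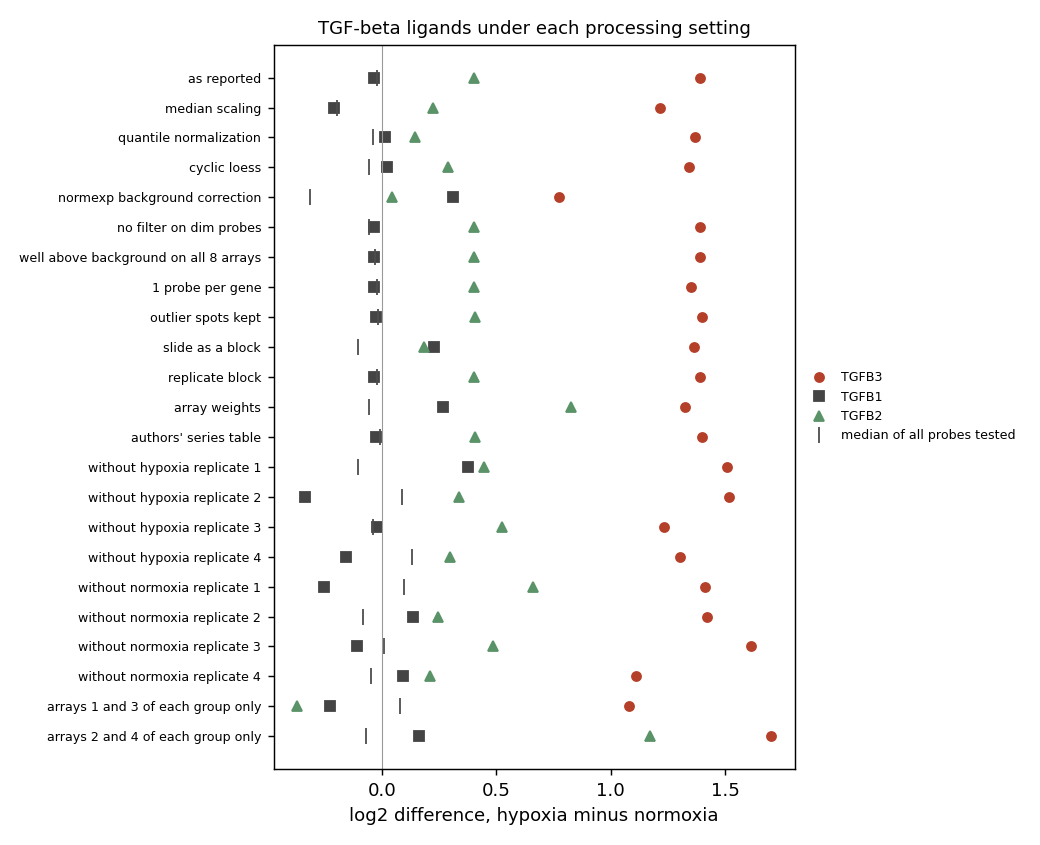
Log2 difference, hypoxia minus normoxia (horizontal axis), of the 3 ligands under each setting (rows), with TGFB3 as the mean of its probes and a tick for the median of all probes tested. TGFB3 stays between 0.77 and 1.70, while TGFB1 lies on either side of 0.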

How the data were processed

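The deposited scanner files hold spot intensity, which the authors extracted by Agilent Feature Extraction (version 9.5.3.1, with settings GE1-v5_95_Feb07), per the file headers. Background had been subtracted from the processed values, and arrays were not yet scaled. The authors' deposited table of the series holds a linear ratio of each signal to its array's 75th percentile, judged from its values, with a floor of 0.01; this table served as an alternative. Control spots (536 of 15744) and outlier spots were left out. Levels are log2 processed values less the array's 75th percentile, averaged by probe. A probe was kept when well above background on at least 4 of 8 arrays, which left 11216. Each gene was represented by its brightest kept probe. Symbols came from the files and from RefSeq names of assembly ARS-UI_Ramb_v3.0, for 1235 probes of 702 genes. No genome build was used.

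Groups were compared by limma 3.58.1 in R 4.3.3, with p-values adjusted by Benjamini-Hochberg over all 11216 probes, and 1 ligand balance by an exact permutation test. The R package data.table (1.17.8) read the files. Alternatives changed the scaling, background correction, dim probe filter, blocks, weights and arrays. The limma fit without blocks or weights was tested on simulated data with independent noise. The blocks, weights and permutation test were not. The number of arrays limits the precision. The members and gene lists were chosen with earlier results of these data known. Named genes were the ligands, every measured gene of the lists on latency, receptors, SMADs and antagonists, the 4 of lowest p in the 2 other lists, and the 5 most and 3 least like TGFB3 over arrays, with the 5 most like it within groups.

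Equal replicate numbers deviated together from their group means, with correlations over all probes of 0.82, 0.73, 0.58 and 0.43 for numbers 1 to 4, and were used as pairs. The pairing rests on these values alone, as no label says what a number shares. Hypoxia 1, 2 and 3 each correlated best with the normoxia array of their number. Hypoxia 4 correlated best with normoxia 2 (0.80), more closely than hypoxia 2 did (0.73), so numbers 2 and 4 are not borne out as pairs.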

Additional observations from a re-analysis of the deposited data

Results flagged for a closer look

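In 6 of 90 groups of 4 arrays (45 probes of the pathway), 1 array stood apart from the other 3 by more than the 95% limit of Dixon's test, which chance does in about 1 in 20 groups. Neither probe of TGFB3 and no probe of TGFB1 or TGFB2 was among them. Biglycan (BGN) was low on arrays numbered 1 of both groups, at 4.48 on hypoxia 1 against 5.34 to 5.52 on the other hypoxia arrays, and at 4.31 on normoxia 1 against 5.52 to 5.62 on the other normoxia arrays. CCN1, a matrix protein that responds to TGF-beta, was at 0.044 on hypoxia 1, against 2.09 to 2.38 on the other hypoxia arrays. Decorin (DCN) was at 7.44 on hypoxia 1, against 4.27 to 4.51 on the other hypoxia arrays. Follistatin (FST) was at 0.58 on hypoxia 3, against 1.59 to 1.70 on the other hypoxia arrays. NOG was at 0.051 on normoxia 4 by A_70_P068157, against -3.65 to -3.26 on the other normoxia arrays, where its second probe read -3.48 on normoxia 4.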

How the results depend on the processing

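With 20 alternatives and 2 more chosen after the data were seen (arrays 1 and 3 or arrays 2 and 4 of each group only), no probe passed an adjusted p of 0.05 by limma in any of the 22, while an unadjusted p under 0.05 was met by between 24 probes (normexp, 9 higher and 15 lower) and 1365 (array weights), against 413 (334 higher and 79 lower) as reported. TGFB3 moved by more than the spread between arrays only with normexp, at 0.77; leaving out 1 array gave 1.11 to 1.61. TGFB1, at -0.03 as reported, changed sign at 0.012 with quantile normalization, 0.021 with cyclic loess, 0.31 with normexp, 0.23 after blocking on slide, 0.27 with array weights and 0.16 among arrays 2 and 4, and ran from -0.34 to 0.38 when 1 array was left out. TGFB2, at 0.40, became -0.37 among arrays 1 and 3. The median of the 43 pathway genes, at -0.03, became 0.065 over probes well above background on all 8 arrays and 0.11 among arrays 1 and 3, and ran from -0.078 to 0.239 when 1 array was left out. The cause was not tested in any of these. Of the 43 genes, 15 were higher with median scaling, 9 with normexp and 15 after blocking on slide, against 21, but 30 without hypoxia 4, 26 among arrays 1 and 3 and 25 without hypoxia 2 or without normoxia 1; the median of all probes was -0.20 with median scaling, -0.31 with normexp and -0.10 after blocking on slide, and 0.13 without hypoxia 4. The replicate block gave 1337 probes and 7 pathway genes at an unadjusted p under 0.05 against 413 and 1, and changed no other call. With 1 array of each group in a block, no group difference could change. By this design TGFB3 stayed at 1.39, TGFB1 at -0.03 and TGFB2 at 0.40. Probes near background, as for TGFBR1 and SMAD3, limit what can be said of them.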
